A study of Mus musculus with 9 samples.

Results

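The transcriptome described here is that of NIH/3T3 cells that received no UVA. NIH/3T3 is an established line of mouse embryonic fibroblasts, labelled wild type. The members are the 3 control libraries of a series of 9, and they were chosen by their titles and treatment label. The series asked whether α-arbutin, a glycosylated hydroquinone, counters photodamage by UVA. Its other groups, not used here, are 3 libraries of cells given UVA at 10 J/cm2 and 3 of cells given that dose and α-arbutin. The control libraries have a slash as their treatment label, and whether these cells were handled like the irradiated ones without the lamp is not given in the sources used here. All groups are 1 cell line kept in DMEM with fetal bovine serum and antibiotics, so that every level is one of serum-fed cells in culture. The labels do not say whether the 3 libraries come from separate cultures, and the spread between them may be technical.

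Fibroblasts make the collagen-rich matrix of connective tissue, and respond to growth factors that bind receptor tyrosine kinases at their surface. The 3T3 lines were derived from embryo cultures by serial passage and grow without a limit on divisions, but stop dividing when they touch each other. NIH/3T3 became a standard recipient for testing cancer genes, because its flat monolayer shows transformed colonies well.

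Levels are given in FPKM, the counts of a gene divided by the length of its exons (in kb) and by the total of the library (in units of 1e6 counts). This allows one gene to be set beside another only roughly. The length is 1 exonic size per gene, whichever of its transcripts the cells made. Ratios between genes and calls near a threshold therefore depend on that size. A gene is called on where its FPKM was at least 1 in each of the 3 libraries, off where it was under 0.1 in each, and intermediate otherwise. Values after ± are the SD over the 3 libraries (n = 3), and levels listed for single libraries are in the order control 1, 2 and 3. No test was run, because the libraries are 1 group. An exact permutation test of 3 values against 3 cannot go below p = 0.1, so 2 genes are said to differ only where their 3 values do not overlap. This rule does not pair the 2 genes within a library, so genes that overlap can still keep the same order in every library.

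Total counts were 17.11, 17.72 and 20.86 (in units of 1e6), and 21203, 21283 and 21815 genes had at least 1 count. Across the genes called on, log2 FPKM correlated between libraries with a Pearson r of 0.9925 to 0.993, over genes that are not independent replicates. The libraries were not copies of one another, since the chi-square per gene averaged 2.295 to 3.009 for the 3 pairs, where sampling alone gives about 1. The common coefficient of variation beyond counting, estimated with edgeR, was 3.27%. At 1 to 10 FPKM the median gene varied by 6.36% between libraries, beside a median counting error of 5.45%. At 100 to 1000 FPKM it varied by 1.94%, against 1.06% from counting. The difference within a pair is not the spread beyond counting, because such coefficients do not add. The SD of 3 values also tends to fall under the true SD, whereas the counting error was taken from the mean count.

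Of 56691 genes in the table, 11143 (19.7%) were on, 36594 (64.5%) were off and 8954 were intermediate. Of 21871 genes annotated as protein-coding, 9819 (44.9%) were on and 9304 (42.5%) off. A gene list can be read against these 4 shares, because a list whose share of genes on lies near 44.9% does not stand apart from coding genes in general. Most genes on had modest levels: 6153 lay between 1 and 10 FPKM, 4607 between 10 and 100, and 383 at 100 or more. Only 22 reached 1000 FPKM. No count at all was recorded for 31258 genes in any control library. Among the 1299 genes of the lists described below, 621 were on, 186 intermediate and 492 off. Collagens (36.4% on), receptor tyrosine kinases (36.2%), their ligands (40%) and nuclear receptors (40.8%) lay near the share of coding genes, so that what can be read from them is which members were on, not how many.

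**Figure D1:**
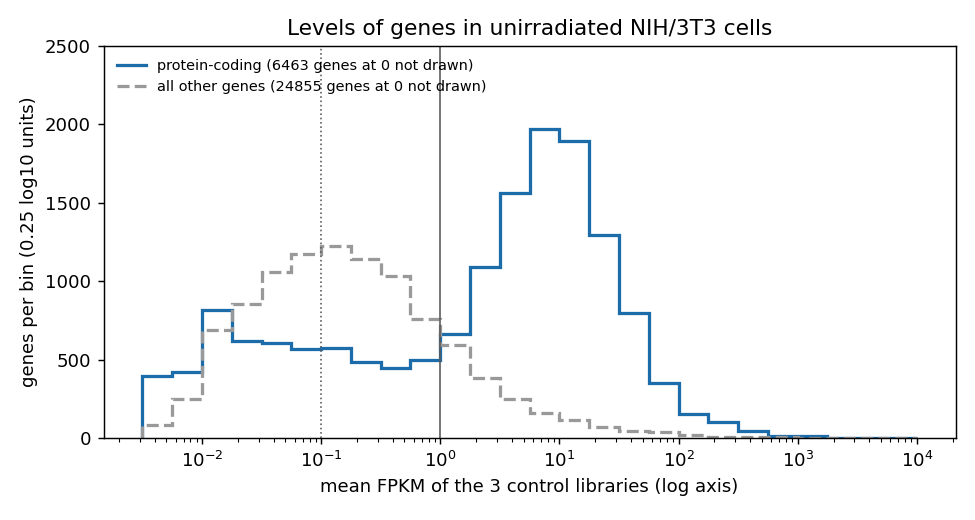
Number of genes (vertical axis) at each mean FPKM of the 3 control libraries (horizontal axis, log scale, bins of 0.25 log10 units), for protein-coding genes (solid) and all other genes (dashed); the solid vertical line marks 1 FPKM and the dotted line 0.1 FPKM. Protein-coding genes form a broad low shoulder under 1 FPKM and a peak of 1971 genes in the bin just under 10 FPKM, while other genes peak near 0.1 FPKM.

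The highest levels belonged to mitochondrially encoded genes, a ribosomal RNA repeat and the translation machinery. mt-Co1, which encodes a core subunit of cytochrome c oxidase, stood at 8882, 9510.1 and 9117 FPKM, above every other gene. mt-Nd1, a subunit of respiratory complex I, followed at 8125 ± 133 FPKM. mt-Cytb (3733 ± 142 FPKM), mt-Nd2 (2732 ± 72), mt-Nd5 (1518 ± 64.3), mt-Nd4 (1162 ± 62.2) and mt-Nd6 (1105 ± 36.3), whose span overlaps that of mt-Nd5, were also among the 20 highest genes. Together the genes of the mitochondrial chromosome held 3.61% ± 0.0996 of all counts. Rn18s-rs5, a copy of the 18S ribosomal RNA gene, varied most among the 20 highest genes, at 5180.2, 4457 and 5914 FPKM, and took 0.824 to 1.09% of the counts of a library. Control 2 was the lowest for this RNA and control 3 the highest. How RNA was enriched for the libraries is not given in the sources used here, which also bears on RNAs without a poly(A) tail.

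Among nuclear protein-coding genes, Eef1a1, the elongation factor that brings charged tRNA to the ribosome, led at 4237, 4319 and 4288 FPKM. Lgals1, the galactose-binding lectin galectin-1, came next at 2187 ± 35.4 FPKM. S100a4, a calcium-binding protein long used as a fibroblast marker, stood at 1289, 1247 and 1279 FPKM and so among the 20 highest genes. The rest of those 20 were mostly ribosomal proteins (Rps3a1 at 1688 ± 50, Rplp1 at 1302 ± 45.6, Rps15 at 1208 ± 31, Rplp0 at 1165 ± 29.9, Rpl41 at 1126 ± 11.6 and Rps4x at 1034 ± 2.95 FPKM), with Eef2 at 1341 ± 26.6 and the chaperone Hsp90ab1 at 1294 ± 10.8 FPKM. Of 90 cytosolic ribosomal protein genes, 86 were on, and they held 5.01% ± 0.0404 of the counts. By count, which favours long transcripts, the matrix gene Fn1 and the fatty acid desaturase Scd2 (520.5 ± 6.78 FPKM) entered the first 10. Those 10 genes took 6.46% ± 0.109 of the counts, and it took 945 to 957 genes to reach 50% of a library, so that no small set of genes dominated it.

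Some high levels belong to genes whose sequence is shared with near-identical copies, and these are uncertain because how such reads were counted is not given in the sources used here. Rps2-ps13, annotated as a pseudogene on chromosome X, was at 1031 ± 27 FPKM, whereas the parent ribosomal protein gene Rps2 was at 62.1 ± 3.52 FPKM. Gapdh, a glycolytic enzyme gene with many processed copies in the mouse genome, was at 17.6, 17.1 and 18.1 FPKM. That level also depends on its exonic size, given as 4133 bases. Pgk1, which encodes the next enzyme of the same pathway, stood at 559.6, 597 and 589 FPKM, a ratio to Gapdh of 33.1 ± 1.64. Genes annotated as pseudogenes held 1.33% ± 0.0107 of all counts. Overlapping genes raise the same doubt, since the strandedness of the counting is not given either: 116 of the 621 listed genes on (18.7%) overlap another gene that was on, among them Col4a1 with Col4a2, Cdk4 with Tspan31, Lox with Gm41724, Spp1 with Gm42793, and Rb1 with Lpar6.

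The promoters of genes on and off differed in base composition. RefSeq start sites (build GRCm38.p6, unlike the mm39 coordinates of the count table) were matched by symbol for 16735 protein-coding genes, and a window from 250 bases before to 50 bases after the start was read for each. Genes off had a median of 4 CpG dinucleotides in the 300 bases and genes on a median of 22, with quartiles of 1 to 11 and 15 to 29. Within genes on, the median hardly moved with level: it was 20.5 at 1 to 10 FPKM, 23 at 10 to 100 and 22 at 100 or more. The GC box GGGCGG, searched on both strands, was found in 27.1% of genes off and 72.6% of genes on (50.8% of all 16735). The TATA motif TATAAA, searched likewise, showed the opposite order, in 22.4% of genes off and 7.78% of genes on (14.6% of all), but in 13.5% of those at 100 FPKM or more. A match is only a description of letters in the window. The 250 bases before the start of Eef1a1, on in every library, and of Tyr, the melanin enzyme gene tyrosinase with 1 count in all 3 libraries, are shown as a typical window of a gene on and one without CpG. Over the 300 bases Eef1a1 has 22 CpG, the median of genes on, and Tyr 0, and the 250 bases printed hold 18 and 0. Capitals mark CpG, and both are read 5′ to 3′ on the gene's own strand, which is the minus strand (chr9:78481725-78481974 and chr7:87493513-87493762, GRCm38.p6).
Eef1a1: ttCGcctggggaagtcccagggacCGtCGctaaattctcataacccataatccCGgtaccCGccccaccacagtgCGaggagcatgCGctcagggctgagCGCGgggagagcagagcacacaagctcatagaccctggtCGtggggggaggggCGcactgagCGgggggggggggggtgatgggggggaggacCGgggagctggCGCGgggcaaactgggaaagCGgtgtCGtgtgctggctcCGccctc
Tyr: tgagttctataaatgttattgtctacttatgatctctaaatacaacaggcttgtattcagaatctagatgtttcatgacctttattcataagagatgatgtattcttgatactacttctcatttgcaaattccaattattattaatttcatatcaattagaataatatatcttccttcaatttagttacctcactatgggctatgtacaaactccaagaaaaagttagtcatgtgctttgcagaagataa

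The fibroblast label held for most defining markers and failed for a few. Of 19 fibroblast markers, 14 were on (73.7%, where 44.9% of coding genes were), 2 intermediate and 3 off, and their summed level lay between 2550 and 2580 FPKM. Vim, the intermediate filament protein of mesenchymal cells, stood at 569, 584 and 575 FPKM (ENSMUSG00000026728, chromosome 2, 13578738 to 13587637, plus strand of mm39). The surface markers Ly6a (52.1 ± 4.85 FPKM), Cd44 (46.6 ± 1.12 FPKM) and Thy1 (24.3 ± 0.691 FPKM) were all on. So were Prrx1, Twist1 and Twist2, transcription factors of limb and skin mesenchyme, at 37.9 ± 0.692, 22.2 ± 0.787 and 13.2 ± 1.38 FPKM. Each of these lay far above 1 FPKM in every library.

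Of the fibroblast markers that were not on, Tcf21, Fap and Pi16 were off and Lum and Dpt intermediate. Tcf21, a factor of visceral fibroblasts, had 0 counts, which allows at most 0.0746 FPKM, the level 3 counts would give in the shallowest library. Fap, the surface protease of activated fibroblasts, had 5 counts in all, Lum, the proteoglycan lumican, had 5, and Pi16, a marker of adventitial fibroblasts, had 19. Dpt, a matrix protein of dermis, was intermediate at 0.68, 0.43 and 0.92 FPKM. Dcn, the proteoglycan decorin, was on but low at 3.46, 4.17 and 3.72 FPKM, under every fibrillar collagen gene that was on.

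Markers of other cell types were near the floor. No member was on in the epithelial list (8 of 10 off), the endothelial list (6 of 8 off), the skeletal muscle list (7 of 8 off) or the neural list (8 of 10 off), and the summed level of each of these lists was at most 1.51 FPKM in every library. Epcam, Krt5, Krt14 and Krt19 of epithelia, Cldn5 of endothelium, Myod1, Myog and Pax7 of muscle, and Sox2, Sox10 and Tubb3 of neural cells had no count in any library. In the immune list, Lyz2, the lysozyme of macrophages, was on at 3.95, 4.38 and 2.29 FPKM and Cd68, a lysosomal protein, at 2.42, 2.65 and 2.25 FPKM. The defining members Ptprc (54 counts), Itgam (1) and Cd3e (0) were off. The adipocyte list had only Lpl, lipoprotein lipase, on at 2.96 ± 0.0751 FPKM, and Adipoq had 1 count. In the list for pluripotent and germ cells Klf4, a factor also used in many somatic cells, was on at 26.6, 26.9 and 26.3 FPKM, while Pou5f1, Nanog and Sox2 had no count.

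Pigment genes were listed because arbutin is known as an inhibitor of tyrosinase. Of 10 melanocyte and pigment genes, 7 were off and 5 of them had no count in any library, among them Tyrp1 and Dct, the partner enzymes of tyrosinase. Mitf, the regulator of melanocyte genes that other cells also transcribe, was on near the threshold at 1.18, 1.28 and 1.29 FPKM. Gpnmb, a lysosomal glycoprotein first described in melanoma, was well on at 51.6, 46 and 49.5 FPKM. Light receptors were scarce too: Opn3 was on at 1.59, 1.68 and 1.6 FPKM, and the other 7 opsin genes were off or, for Opn1sw, intermediate, with 16 counts.

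Collagen genes ran from no count to 193 FPKM. Collagens are triple helices of chains that form fibrils, networks or bridges between them. Of 44 chains, 16 were on (36.4%), 9 intermediate and 19 off. The highest was Col1a2, the minor chain of type I collagen, at 184, 199.9 and 195 FPKM (ENSMUSG00000029661, chromosome 6, 4504814 to 4541544, plus strand of mm39). Col1a1, the major chain, followed at 144, 148 and 147 FPKM (chromosome 11, 94827050 to 94843868). The 3 values of the chains did not overlap, and the ratio of Col1a2 to Col1a1 was 1.28, 1.35 and 1.33. Col3a1, the single chain of type III collagen, was the next at 112, 111 and 115 FPKM.

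The partners that build type V fibrils were on, Col5a2 at 43.5 ± 0.83 and Col5a1 at 26.1 ± 1.03 FPKM, whereas Col5a3 had 14 counts. Cartilage collagens were not on: Col2a1 had 6 counts, and Col11a1 was intermediate at 0.87, 0.84 and 0.78 FPKM. Among network collagens, Col4a1 (56.2, 51.1 and 55.5 FPKM) and Col4a2 (52.8, 47.7 and 50.3 FPKM), which form the common type IV trimer, overlapped in their 3 values. Within each library Col4a1 was the higher. The X-linked pair Col4a5 (35.5 ± 1.41 FPKM) and Col4a6 (12.4 ± 0.745 FPKM) was on, and Col4a3 and Col4a4, the chains of kidney and lung basement membrane, were at 9 and 45 counts, under 0.1 FPKM in most libraries. Col8a1 was on at 36.2 ± 1.28 FPKM without its partner Col8a2, which had 1 count.

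Type VI collagen, a beaded filament around cells, had its 3 classical chains on and unequal: Col6a1 at 54.8 ± 1.45 FPKM, Col6a3 at 35.9 ± 0.88 and Col6a2 at 11.3 ± 0.696. The later chains Col6a4, Col6a5 and Col6a6 had at most 1 count each. Of 10 fibril-associated collagens, Col16a1 (25.5 ± 0.784 FPKM) and Col12a1 (3.5 ± 0.341 FPKM) were on. Col14a1, often paired with Col12a1 in skin, had 15 counts. None of the 6 transmembrane and multiplexin collagens was on, the nearest being Col18a1 at 0.36, 0.47 and 0.55 FPKM. Col7a1, the anchoring fibril chain, sat on the threshold at 1.18, 1.22 and 1.16 FPKM.

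**Figure D2:**
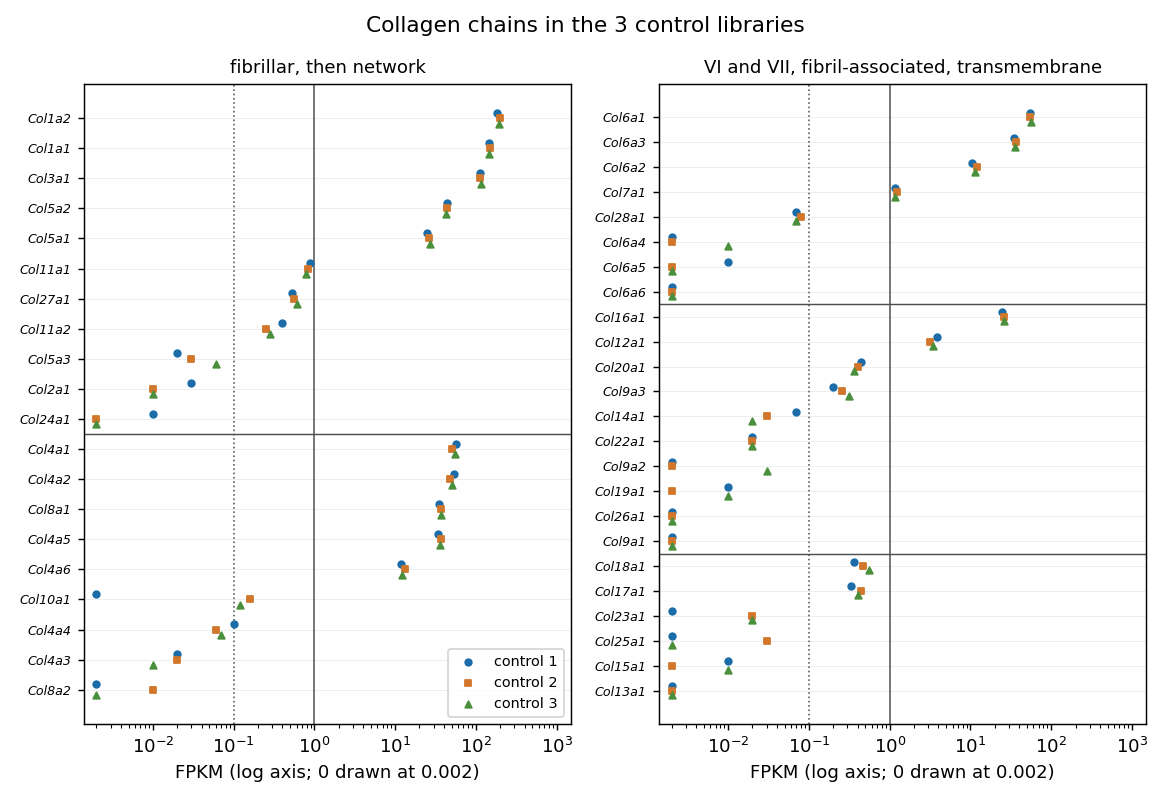
FPKM of 44 collagen chains (horizontal axis, log scale, with 0 drawn at 0.002) in control 1 (circles), control 2 (squares) and control 3 (triangles); horizontal lines separate the classes, the solid vertical line marks 1 FPKM and the dotted line 0.1 FPKM. The 16 chains on lie to the right of 1 FPKM with their libraries close together, and libraries scatter only in chains with few counts.

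Of 14 laminin, nidogen and perlecan genes, 6 were on (42.9%), near the share of coding genes. Laminins are trimers of an alpha, a beta and a gamma chain. Lamb1 was at 47.8, 47.6 and 48.8 FPKM and Lamc1 at 41.9, 42 and 42.2 FPKM, a ratio of 1.14 ± 0.0102. None of the 5 alpha chains was on in every library, which for Lama4 turns on the threshold. Lama4 stood at 0.94, 1.06 and 0.99 FPKM, Lama5 was at 0.23 ± 0.0436 FPKM, and Lama1 had 0 counts. The linker Nid1 was high at 174, 179 and 173 FPKM while its paralogue Nid2 had 1 count. Hspg2, which encodes perlecan, was at 55.3 ± 1.47 FPKM.

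Adhesive and matricellular proteins held some of the highest levels outside translation. Spp1, the phosphoprotein osteopontin, was at 573, 541 and 558 FPKM (ENSMUSG00000029304, chromosome 5, 104582984 to 104588916, plus strand of mm39). Fn1, fibronectin, was at 347, 360.2 and 346 FPKM (chromosome 1, 71624679 to 71692359), Sparc at 225, 232 and 229 and Thbs1, thrombospondin, at 187, 192 and 181 FPKM. The 4 genes did not overlap one another. Tnc, tenascin C, stood at 74.2 ± 2.18 FPKM, and the YAP target genes Ccn1 and Ccn2 at 45.5 ± 1.28 and 26.5 ± 1.03 FPKM. Postn, periostin, was only 0.19, 0.16 and 0.13 FPKM, and Vtn, vitronectin, a protein made mainly in the liver, had 0 counts.

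Of 14 elastic fibre genes, 9 were on. Fbn1, the fibrillin of microfibrils, was at 8.17, 8.02 and 7.84 FPKM, and Fbn2, the embryonic fibrillin, had 3 counts. Fbln2, Efemp2 and Fbln5, fibulins that help assemble elastic fibres, stood at 76 ± 1.79, 31.8 ± 1.25 and 19.2 ± 0.352 FPKM. Eln, elastin itself, had 0 counts, which allows at most 0.0216 FPKM, and Fbln1 had 1. The lysyl oxidases, which crosslink collagen and elastin, were led by Lox at 244, 271 and 249.6 FPKM, with Loxl1 at 46.8 ± 0.771, Loxl3 at 14.4 ± 0.458 and Loxl4 at 7.36 ± 0.245 FPKM, none of which overlapped. Loxl2 was the only one of the 5 that was off, with 11 counts.

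Of 29 proteoglycans, 12 were on (41.4%), near the share of coding genes. Bgn, biglycan, was at 223, 216 and 227 FPKM, far above its near relatives Ogn (13.9 ± 0.526 FPKM) and Dcn, while Fmod and Podn had 1 count each and Kera 0. Vcan, versican, was at 74 ± 0.914 FPKM and the other large aggregating proteoglycans, Acan, Bcan and Ncan, were off. All 4 syndecans were on, Sdc2 at 52.8 ± 1.99, Sdc4 at 42.4 ± 1.39, Sdc1 at 37.7 ± 0.873 and Sdc3 at 3.95 ± 0.245 FPKM. Of the 6 glypicans, Gpc1 (32.3 ± 0.746 FPKM) and Gpc6 (4.9 ± 0.346 FPKM) were on and the other 4 were off. Has2 was the only hyaluronan synthase on, at 1.96, 2.28 and 2.18 FPKM, with Has1 at 0.8, 0.79 and 0.75 FPKM and Has3 at 0.42, 0.55 and 0.44. The hyaluronan-degrading proteins Cemip2 (8.61 ± 0.323 FPKM), Hyal2 (6.13 ± 0.531) and Cemip (3.17 ± 0.117) were on and did not overlap.

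Matrix proteases and their inhibitors shape the matrix after it is laid down. Of 23 matrix metalloproteinases, 6 were on (26.1%), 4 intermediate and 13 off. Mmp2, gelatinase A, was at 129, 133 and 129 FPKM and Mmp14, the membrane enzyme that activates it, at 48.9, 49.3 and 48.7 FPKM, a ratio of 2.66 ± 0.0337. Mmp11 (12.5 ± 0.95 FPKM), Mmp19 (7.55 ± 0.5), Mmp3 (2.74 ± 0.696) and Mmp16 (1.54 ± 0.0529) were the others on. The interstitial collagenases were not: Mmp13 had 4, 5 and 4 counts in the 3 libraries, Mmp1a and Mmp8 had none, and Mmp1b had 2 in all. Mmp9, gelatinase B, was at 0.08, 0.11 and 0.12 FPKM.

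Their inhibitor Timp2 was higher, at 172, 179.6 and 176 FPKM, with Timp1 at 27.6 ± 1.13 and Timp3 at 15.8 ± 0.0902 FPKM, and Timp4 was off with 1 count. Of 19 ADAMTS proteases, 9 were on, led by Adamts1 at 31.1 ± 1.57 and Adamts5, an aggrecanase, at 18.2 ± 0.342 FPKM. The procollagen N-proteinases Adamts14 (6.11, 6.41 and 6.49 FPKM) and Adamts2 (5.96, 6.61 and 6.22 FPKM) overlapped, and Adamts3 had 0 counts. Among the 9 genes listed with the plasmin system, Serpinf1 (177 ± 7.39 FPKM) and the collagen chaperone Serpinh1 (169 ± 5.69 FPKM) were highest. Their place in the list does not make these 2 serpins inhibitors of that system. Plaur, the urokinase receptor, was at 20.8 ± 1.35 FPKM, Plau at 8.13 ± 1.64 and Plat at 4.64 ± 0.183 FPKM, and Plg, the plasminogen that liver supplies, was off.

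Integrins, the receptors that hold cells to this matrix, were on in 10 of 26 cases (38.5%), near the share of coding genes. Of 18 alpha subunits, 5 were on (27.8%), in the order Itga3 (41.9 ± 0.808 FPKM), Itgav (31.2 ± 0.38), Itga5 (28.9 ± 0.789), Itga6 (18.8 ± 0.468) and Itga2b (1.12 ± 0.153). Itga5 and Itgav bind fibronectin, and Itga3 and Itga6 bind laminin. None of the collagen-binding subunits was on: Itga1 had 14 counts, Itga2 had 4, Itga11 had 6, and Itga10 was at 0.24, 0.25 and 0.18 FPKM. The common partner Itgb1 was at 218, 226 and 215 FPKM, 17.7 ± 0.671 times Itgb5. Itgb7 and Itgb2, subunits known mainly from leukocytes, were on at 7.91, 7.13 and 7.82 and 6.53, 6.88 and 5.64 FPKM, while their leukocyte partners Itgal, Itgam, Itgax, Itgad and Itga4 were off and Itgae, which pairs with Itgb7, was intermediate at 0.33, 0.23 and 0.5 FPKM. Itgb3 was intermediate at 0.3, 0.33 and 0.25 FPKM.

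A second family of collagen receptors was on. Ddr2, the discoidin receptor for fibrillar collagen, was at 49.3, 50.1 and 49.7 FPKM, and Ddr1 at 7.57, 6.6 and 7.44 FPKM. Cell to cell adhesion rested on Cdh2, N-cadherin, at 22.1, 21.6 and 20.6 FPKM. Cdh11, the cadherin usual in mesenchyme, had 8 counts, and Cdh1, E-cadherin, was at 0.37, 0.31 and 0.51 FPKM. Cdh26 (2.15, 1.44 and 1.58 FPKM) and Cdh24 (1.24, 1.73 and 1.96 FPKM) were the only others on of 20 cadherins. Of 20 connexins, 3 were on, among them Gja1 (30.4 ± 0.743 FPKM) and Gjc1 (14.2 ± 0.383 FPKM), and 12 had no count.

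Cytoskeletal families are small, so that what can be read from them is which members were on. The shares on of actins (50%) and tubulins (43.8%) lay near the 44.9% of coding genes. Those of intermediate filaments (30.8%) and myosin heavy chains (18.2%) were lower. Actb and Actg1, the cytoplasmic actins, stood at 988, 1007 and 999.7 and 361, 376 and 382 FPKM. Acta2, the smooth muscle actin used as a marker of myofibroblasts, was at 16.1, 14.4 and 14.6 FPKM, and the cardiac and skeletal forms Actc1 and Acta1 had 0 and 4 counts. All 4 tropomyosins were on, from Tpm4 at 140.3 ± 4.4 over Tpm1 (79 ± 1.83) and Tpm3 (61.8 ± 2.09) to Tpm2 at 33.9 ± 0.791 FPKM. Myh9 (87.2 ± 2.34 FPKM) and Myh10 (53.2 ± 1.6 FPKM) were the only myosin heavy chains on of 11, and the third non-muscle form, Myh14, had 2 counts. Tubb5 at 439, 449 and 448 and Tuba1b at 370.3, 378 and 372 FPKM led the tubulins, with Tuba1a at 163, 166 and 161, and 7 of 16 tubulins were on. Lmna and Lmnb1, lamins of the nuclear envelope, were at 69.3 ± 2.16 and 49.2 ± 1.27 FPKM, and the muscle filament gene Des was intermediate at 0.22, 0.63 and 0.66.

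Receptor tyrosine kinases bind growth factors outside the cell and phosphorylate targets inside. Of 58 genes, 21 were on (36.2%), 9 intermediate and 28 off, and 12 had no count in any library. One receptor stood clear of the rest: Axl, of the TAM family, at 221, 229 and 226 FPKM (ENSMUSG00000002602, chromosome 7, 25456698 to 25488130, minus strand of mm39). Its level was 34.7 ± 1.57 times that of Tyro3 (6.51 ± 0.401 FPKM), while the third TAM receptor, Mertk, was at 0.18, 0.2 and 0.36 FPKM. After Ddr2 came Ryk, a Wnt receptor with an inactive kinase, at 49.3, 48.8 and 48.6 FPKM. Epha2 (33.6, 32.8 and 34.8 FPKM), Pdgfrb (32.6, 29.9 and 34.1 FPKM) and Pdgfra (33, 29.4 and 31.8 FPKM) followed, and neighbours overlapped. Within each library Epha2 was above the other 2, while Pdgfrb and Pdgfra changed order.

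Met, the receptor of hepatocyte growth factor, was at 22.4, 23 and 21 FPKM and Fgfr1 at 19.8, 20.1 and 19.1 FPKM. The other FGF receptors were low or off: Fgfr2 at 0.36, 0.25 and 0.39 FPKM, Fgfr3 with 6 counts and Fgfr4 with 5. Igf1r (8.73 ± 0.209 FPKM) and Insr (5.08 ± 0.191 FPKM) were both on, at a ratio of 1.72 ± 0.0354. Erbb2 was on at 12.7, 11.3 and 12.2 FPKM. Its usual partner Egfr, the EGF receptor, had 6, 5 and 10 counts, or 0.03, 0.02 and 0.04 FPKM, Erbb3 was at 0.67, 0.58 and 0.66 FPKM and Erbb4 had 0 counts. Ephb4 (17 ± 0.466 FPKM), Ephb3 (4.5 ± 0.265), Ephb2 (3.48 ± 0.206) and Epha4 (1.17 ± 0.0458) were the Eph receptors on beside Epha2.

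Receptors of blood, nerve and vessel lineages were at or near 0. Kit, Flt3, Ntrk2, Ntrk3, Ret and Ros1 had no count in 3 libraries, Kdr had 1, Tie1 3 and Tek 4. For Kit, a count of 0 allows at most 0.0197 FPKM. Csf1r, the receptor that marks macrophages, was at 0.13, 0.14 and 0.13 FPKM.

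**Figure D3:**
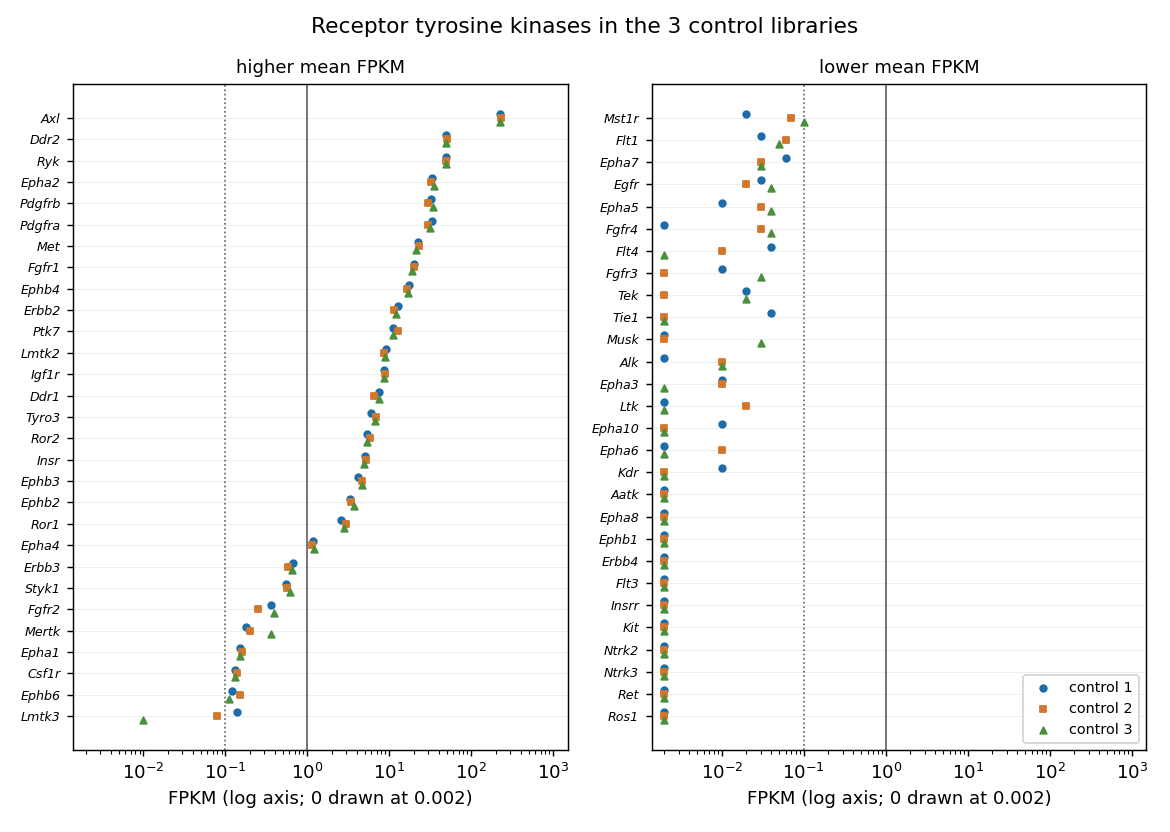
FPKM of 57 of the 58 receptor tyrosine kinase genes (horizontal axis, log scale, with 0 drawn at 0.002), ordered by mean, in control 1 (circles), control 2 (squares) and control 3 (triangles); the solid line marks 1 FPKM and the dotted line 0.1 FPKM. Axl lies alone above 200 FPKM with its 3 libraries together, the 20 other genes on lie between 1 FPKM and the level of Ddr2, and the 11 genes drawn without a count line up at the left edge.

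Ligands of these receptors were on in 28 of 70 cases (40%), often without the receptor. Csf1, the macrophage growth factor, was the highest at 93.8, 94.1 and 92.6 FPKM, although Csf1r was near 0.1. Fgf7, which acts on epithelial Fgfr2, was at 84.2, 86.3 and 80 FPKM, and Fgf10, with the same receptor, at 8.62, 6.88 and 8.12 FPKM. Kitl, the ligand of Kit, was at 67.4, 65.1 and 65.9 FPKM with Kit at 0. Bdnf (11.2 ± 0.911 FPKM) and Gdnf (8.65 ± 0.461 FPKM) were on, and their signalling receptors Ntrk2 and Ret had no count. Vegfa, the vessel growth factor, was at 40.3, 37 and 37.9 FPKM, with Flt1 at 33 counts and Kdr at 1.

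The EGF family showed the same arrangement: Ereg, epiregulin, was at 25.5, 20 and 21.4 FPKM, Hbegf at 4.53 ± 0.195 FPKM and Nrg1 at 4.37 ± 0.282 FPKM, while Tgfa had 1 count and Btc 3. The reverse was seen for Axl, whose ligand Gas6 was at 0.07, 0.02 and 0.17 FPKM, although Pros1, the other TAM ligand, was on at 14.8, 13.5 and 13.5 FPKM. Pdgfrb was on with both of its own ligands off, Pdgfb at 3 counts and Pdgfd at 1. For Pdgfra, ligands were present, Pdgfa at 10.1 ± 0.315 and Pdgfc at 13.3 ± 0.32 FPKM. Hgf and Met were on together, with Hgf at 6.53, 6.69 and 7.44 FPKM. The insulin-like factors Igf1 (0.41, 0.42 and 0.32 FPKM) and Igf2 (0.12, 0.12 and 0.13 FPKM) were low, and Ins1 and Ins2 had no count.

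Over 58 ligand and receptor pairs, chosen after the levels had been seen, both members were on in 12, only the ligand in 21, only the receptor in 15 and neither in 10. A pair shares a ligand or receptor with other pairs in many cases, so these are not independent counts. Among the 12 were Pdgfa with Pdgfra, Hgf with Met, Fgf2 with Fgfr1, Lif with Lifr, Il11 with Il11ra1, Tgfb1 with Tgfbr2, Inhba with Acvr2a, Wnt5a with Ror2 and Jag1 with Notch2.

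**Figure D4:**
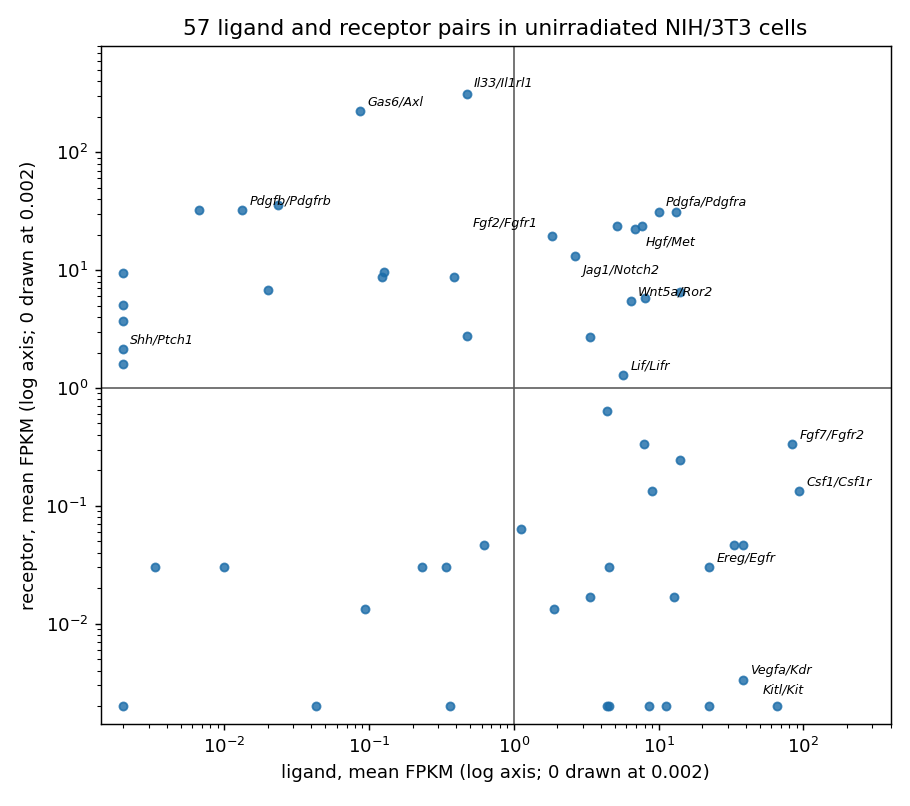
Mean FPKM of the receptor (vertical axis) against that of the ligand (horizontal axis) for 57 of the 58 pairs, both on log scales with 0 drawn at 0.002; lines mark 1 FPKM. Csf1, Fgf7 and Kitl lie at lower right with receptors under 1 FPKM, Axl and Il1rl1 lie at upper left with ligands under 1 FPKM, and 12 pairs lie at upper right; a point just right of the line at 1.12 FPKM is Mst1, which was under 1 in at least 1 library.

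In the TGF-beta superfamily the receptors and SMADs were on and most ligands were not. Of 34 ligands, 6 were on: Gdf11 (21.4 ± 1.15 FPKM), Inhba (8.09 ± 0.0252), Tgfb3 (7.64 ± 0.303), Bmp1, which is a procollagen proteinase despite its name (6.22 ± 0.371), Tgfb1 (5.18 ± 0.371) and Inha (2.44 ± 0.491). Bmp2, Bmp4 and Bmp6 had 7, 5 and 3 counts, and Bmp7 none. Of 14 receptors, 9 were on, led by Tgfbr3 at 43, 41.6 and 42.7, Bmpr1a at 26.8 ± 0.892 and Tgfbr2 at 23.8 ± 1.23 FPKM, with Tgfbr1 at 5.44 ± 0.197. All 8 SMADs were on, from Smad4, the shared one, at 32.9 ± 0.866 to Smad9 at 1.14 ± 0.0839 FPKM. Among the antagonists on were Fstl1 (75.4 ± 1.54 FPKM) and Fstl3 (3.78 ± 0.506 FPKM), and Fst, Nog and Sost had no count.

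Wnt signalling had receptors and cytoplasmic parts but hardly any ligand. Of 19 Wnt genes, Wnt5a alone was on, at 6.22, 6.72 and 6.32 FPKM, 3 were intermediate and 15 off. Of 12 frizzled receptors and co-receptors, 8 were on, Fzd2 at 23.7 ± 0.255 FPKM as the highest, Lrp6 at 7.56 ± 0.367 and Lrp5 at 1.64 ± 0.0802. Ctnnb1, beta-catenin, was at 83.1, 83.2 and 83.3 FPKM, and Axin1, a scaffold for its destruction, at 22.7 ± 1.05 FPKM. Axin2, which beta-catenin induces in many cells, had 0, 1 and 2 counts, Lef1 was at 0.35, 0.28 and 0.33 FPKM and Tcf7 had 8 counts, while Tcf7l1 (4.25 ± 0.0458 FPKM) and Tcf7l2 (3.21 ± 0.28 FPKM) were on. Dkk2 (8.56, 10.7 and 8.9 FPKM) was the only secreted antagonist on of 10, and Sfrp1 and Sfrp2 had 1 and 0 counts.

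The Notch pathway was thinner. Notch2 was at 13.5, 13 and 13 FPKM, Notch1 had 2 counts and Notch3 4. Jag1 was the only ligand on, at 2.68, 2.59 and 2.66 FPKM, and the target genes Hey1, Hey2, Heyl and Hes5 had no count, with Hes1 at 0.6, 0.19 and 0.24 FPKM. In the Hedgehog pathway Gas1, a co-receptor named for growth arrest, was at 65.5, 58.7 and 63.2 FPKM, Smo at 25.4 ± 0.795 and Gli3 at 10.6 ± 0.459, and Ptch1, receptor and target at once, at 2.22, 2.2 and 2.05 FPKM. Shh and Gli2 had no count, and Gli1 was at 0.46, 0.4 and 0.44 FPKM. The Hippo pathway was on nearly in full, with 16 of 18 genes (88.9%): the kinase activator Mob1a at 66.3 ± 0.185 FPKM, the coactivators Wwtr1 and Yap1 at 36.5 ± 0.633 and 20.1 ± 0.36 FPKM, their partners Tead2 and Tead1 at 25.3 ± 0.718 and 23.9 ± 0.76, and Vgll3 at 16.4 ± 1.41.

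Of 44 receptors for lipids and small peptides, 11 were on (25%). F2r, the thrombin receptor, was the highest at 68.5, 73.6 and 69 FPKM. Receptors for the serum lipids followed, Lpar1 for lysophosphatidic acid at 55.1, 50.7 and 52.2 FPKM and S1pr3 for sphingosine 1-phosphate at 29.2, 29.7 and 30.1 FPKM, with S1pr2 and S1pr1 overlapping at 5.56, 5.52 and 6.27 and 5.16, 5.65 and 6.37 FPKM. Ptgfr was the only prostanoid receptor on of 9, at 6.89, 6.32 and 5.88 FPKM. None of 9 adrenergic receptors was on, and Ednrb and Agtr1a had no count. Among 49 nuclear receptors 20 were on (40.8%), led by Rarg, a retinoic acid receptor, at 40.3, 42.8 and 39 FPKM. Nr1h5, a bile acid receptor relative that is a pseudogene in humans, was next at 20.7, 18.8 and 19.3 FPKM and overlapped Nr3c1, the glucocorticoid receptor, at 19.4, 17.2 and 18.1 FPKM. The oestrogen receptor Esr1 had 12 counts, and Esr2, Pgr and Ppara none.

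Cytokine receptors were on in 20 of 28 cases (71.4%). Il1rl1, also called ST2 and the receptor of the alarmin IL-33, was at 312, 324 and 301 FPKM (ENSMUSG00000026069, chromosome 1, 40468730 to 40504575, plus strand of mm39). It was 46.1 ± 5.96 times the level of Il1r1, which lies in the same receptor family, while Il33 was at 0.47, 0.45 and 0.5 FPKM. This gene was originally found in growth-stimulated 3T3 cells. Il6st, the shared chain of the IL-6 family, was at 45.5 ± 0.499 FPKM, Tnfrsf1a at 35.5 ± 1.48 and Ltbr at 26.4 ± 2.54. Both chains of the interferon alpha and beta receptor were on, Ifnar1 at 9.68 ± 0.721 and Ifnar2 at 7.26 ± 0.189 FPKM.

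Chemokines reached high levels without any treatment. Cxcl5 was at 499, 403 and 477 FPKM, Ccl2 at 318, 283 and 309 FPKM and Ccl7 at 144, 122 and 145 FPKM, 3 attractants of neutrophils or monocytes whose values did not overlap. Control 2 was the lowest of the libraries for Cxcl5, and the summed level of the chemokine list ran from 849 to 1000 FPKM. Cxcl1 stood at 40.6, 36.7 and 40.5 FPKM. Cxcl12, the chemokine typical of stromal fibroblasts, had 0 counts, which allows at most 0.0214 FPKM. Il6 was only 0.53, 0.56 and 0.34 FPKM, whereas Lif (5.68 ± 0.366 FPKM) and Il11 (3.38 ± 0.18 FPKM) of the same family were on. Il1b and Tnf had 2 and 2 counts.

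Of 23 genes of innate sensing, 9 were on (39.1%), near the share of coding genes. Of 12 Toll-like receptors, 3 were on: Tlr4, the lipopolysaccharide receptor, was at 17.2, 15.8 and 16.5 FPKM, with Tlr3 at 2.14 ± 0.161 and Tlr2 at 1.69 ± 0.242 FPKM, and Tlr8, Tlr9, Tlr11 and Tlr12 had no count. Aim2, a sensor of cytosolic DNA, was the highest of the cytosolic sensors at 26.6, 25.6 and 27.4 FPKM, followed by Eif2ak2, a kinase that double-stranded RNA activates, at 12.4 ± 0.667, with Cgas at 6.93 ± 0.0917 and its partner Sting1 at 1.6 ± 0.106 FPKM. Ifih1, which senses long double-stranded RNA, had 1 count, while its relative Ddx58 was on at 2.83, 2.55 and 2.39 FPKM. B2m, the light chain of class I molecules, was at 329.5 ± 6.65 FPKM, and the heavy chains H2-D1 and H2-K1, which resemble each other closely, at 68.4 ± 3.11 and 5.94 ± 0.629 FPKM.

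Of 42 cell cycle genes, 33 were on (78.6%). Cyclin D with CDK4 or CDK6 inactivates the retinoblastoma protein, and the INK4 proteins block those kinases. Cdk4 was at 146, 147 and 145 FPKM, 14.1 ± 0.175 times Cdk6 (10.3 ± 0.0751 FPKM). Ccnd1 was at 79.4, 81.1 and 81 FPKM, with Ccnd2 at 26.7 ± 0.335 and Ccnd3 at 5.43 ± 0.213. Later cyclins were on as well, Ccna2 at 46.4 ± 0.532, Ccnb1 at 44.4 ± 0.901, Ccnb2 at 20.9 ± 0.827 and Ccne1 at 13.4 ± 0.341 FPKM, and the germ line forms Ccna1 and Ccnb3 had no count. All 3 pocket proteins were on, Rbl1 at 11.8 ± 0.544, Rbl2 at 6.54 ± 0.167 and Rb1 at 4.19 ± 0.46 FPKM.

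The inhibitors encoded by the Ink4 locus were nearly silent. Cdkn2a, whose locus encodes p16INK4a and ARF, had 2, 2 and 4 counts, or 0.1, 0.1 and 0.16 FPKM (ENSMUSG00000044303, chromosome 4, 89192708 to 89212890, minus strand of mm39). Its neighbour Cdkn2b had 3, 1 and 3 counts, or 0.13, 0.04 and 0.1 FPKM. Mtap, the next coding gene on 1 side, was at 162, 166 and 162 FPKM (chromosome 4, 89055359 to 89099318). Klhl9 and Mllt3 further along were at 39.8 ± 0.946 and 10.9 ± 0.204 FPKM, but Ifne and Ifnb1 on that side had 5 counts each. On the other side, past Cdkn2b, Dmrta1 had 1 count and Elavl2 was on at 1.3 ± 0.111 FPKM. Of the 11 genes listed for this stretch, Cdkn2a and Cdkn2b among them, 6 were on. The unlinked members of the family were on, Cdkn2c at 25.7, 26.2 and 25.4 and Cdkn2d at 11.7, 13 and 10.9 FPKM. A count table cannot tell a deleted gene from a silent one. Of the CIP and KIP inhibitors, Cdkn1a (26.1, 27.2 and 25.4 FPKM) and Cdkn1b (18, 17.8 and 17.7 FPKM) were on and the imprinted Cdkn1c had 0 counts.

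Trp53, which encodes p53, was at 49.4, 50.4 and 50.1 FPKM, its negative regulators Mdm2 and Mdm4 at 21.1 ± 1.16 and 9.04 ± 0.0458, and the relatives Trp63 and Trp73 were off. Of 8 E2F factors, 6 were on, E2f4 at 24.4 ± 0.56 FPKM as the highest, E2f2 sat at 1.04, 0.96 and 1.04 FPKM and E2f6 had 2 counts. Myc was at 45.4, 46.8 and 41.5 FPKM, and Mycn and Mycl had 5 and 1 counts. The serum response genes gave a mixed picture, with Fos at 4, 8 and 5 counts, Fosl2 at 39.9 ± 1.09, Jun at 36.6 ± 1.61 and Egr1 at 7.81 ± 1.31 FPKM. Tert, the catalytic subunit of telomerase, was just on at 1.19, 1.09 and 1.04 FPKM, with the RNA-binding proteins Nhp2 at 94.4 ± 2.15, Nop10 at 51.1 ± 3.17 and Dkc1 at 34.5 ± 0.992 FPKM. Terc, its RNA, which lacks a poly(A) tail, had 0 counts.

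All 20 replication genes and all 20 mitosis genes were on. The replicative helicase was present in 6 subunits, from Mcm4 at 69.9, 69.2 and 68 to Mcm2 at 21.8, 22.5 and 22.6 FPKM. Pcna, the sliding clamp, was at 58.3 ± 0.996 and Rrm2, the subunit of ribonucleotide reductase that peaks in S phase, at 56.4 ± 1 FPKM. The values of Pcna and Rrm2 overlapped, although Pcna was the higher within each library. Top2a, the topoisomerase of mitotic chromosomes, led the mitosis list at 110.3, 115 and 109 FPKM. Cdc20, an activator of the ubiquitin ligase that ends mitosis, was at 91.8, 92.6 and 88.7 FPKM, and Mki67, the antigen of dividing cells, at 62.9, 64.7 and 61.8 FPKM. Plk1, Ube2c and Ccnb1 overlapped at 45 ± 0.555, 44.9 ± 0.425 and 44.4 ± 0.901 FPKM.

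The promoters of the mitosis genes carried known G2 and M phase motifs more often than others. The CCAAT box is bound by the factor NF-Y, and the TTTGAA core of the CHR element by the DREAM and MuvB complexes. Of the 17 mitosis genes with a matched RefSeq window, 14 held CCAAT on either strand (42.3% of all 16735 windows of that length), 12 held TTTGAA (17.8% of all) and 11 held both (8.28% of all). Replication genes held CCAAT in 10 of 16 and TTTGAA in 2. Exceptions among the mitosis genes were Birc5 and Nusap1, in whose windows neither string was found. The 250 bases before the start of Cdc20 (minus strand, chr4:118437344-118437593) and Ube2c (plus strand, chr2:164769679-164769928), on GRCm38.p6, show the arrangement, with both motifs in capitals on whichever strand they were found.
Cdc20: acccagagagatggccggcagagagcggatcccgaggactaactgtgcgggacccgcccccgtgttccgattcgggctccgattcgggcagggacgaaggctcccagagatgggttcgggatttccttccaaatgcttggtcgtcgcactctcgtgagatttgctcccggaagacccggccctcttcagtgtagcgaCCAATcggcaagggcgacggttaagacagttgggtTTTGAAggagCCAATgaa
Ube2c: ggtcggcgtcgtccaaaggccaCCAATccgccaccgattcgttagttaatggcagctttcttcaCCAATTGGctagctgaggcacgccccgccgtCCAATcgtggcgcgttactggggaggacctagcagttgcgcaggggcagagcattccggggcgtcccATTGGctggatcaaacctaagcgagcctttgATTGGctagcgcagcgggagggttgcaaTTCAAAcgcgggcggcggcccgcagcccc

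In Cdc20 the window holds 2 CCAAT boxes around 1 TTTGAA, close to the start. In Ube2c it holds 6 CCAAT matches, 3 on each strand, 2 of which share bases, and 1 TTTGAA on the opposite strand. No window of the 17 held TATAAA, and their median CpG count was 25.

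Hox genes record position along the body axis, and the order of genes in each cluster follows the order of their domains. Of 39 Hox genes, 13 were on (33.3%), 5 intermediate and 21 off, and 15 had no count. In the HoxA cluster there was a sharp border: every gene from Hoxa2 to Hoxa7 was on, and Hoxa9, Hoxa10, Hoxa11 and Hoxa13 were off, with 1, 1, 0 and 0 counts. Hoxa7, the last before the border, was the highest of the cluster at 15.1, 17.3 and 16.9 FPKM, and Hoxa5 was at 9.71, 9.86 and 10.4 FPKM. Hoxa3 spans several of its neighbours, and its 2.1 ± 0.18 FPKM cannot be separated from theirs without strand.

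The other clusters were thinner. In HoxB only Hoxb6 was on, at 2.47, 2.44 and 2.59 FPKM, with Hoxb3, Hoxb4 and Hoxb5 intermediate. In HoxC the on genes were Hoxc4 (2.03, 2.4 and 2.71 FPKM), Hoxc5 (1.38, 1.88 and 1.64) and Hoxc6 (5.9, 4.15 and 3.96), and from Hoxc8 on all were off. The highest Hox gene of all was Hoxd8, at 24.9, 26.5 and 26.7 FPKM (ENSMUSG00000027102, chromosome 2, 74534959 to 74538277, plus strand of mm39), with Hoxd9 at 6.95, 7.11 and 5.77 FPKM and Hoxd10 to Hoxd13 at 0 counts. Paralogue 9 was thus on in HoxD and off in HoxA. Because a gene is called on only where all 3 libraries reach the threshold, these calls cannot show differences between libraries.

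**Figure D5:**
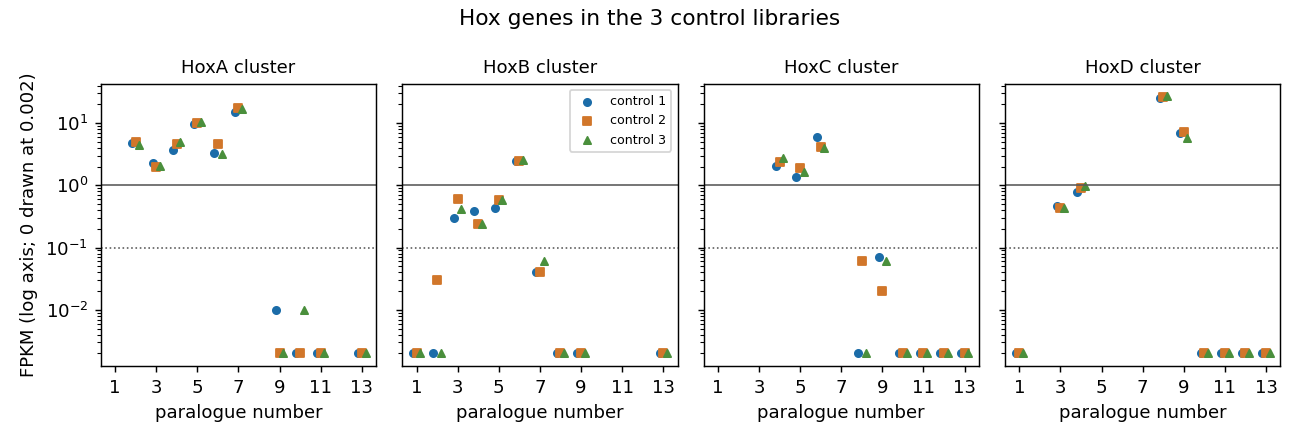
FPKM (vertical axis, log scale, with 0 drawn at 0.002) of 38 of the 39 Hox genes by cluster against their paralogue number in control 1 (circles), control 2 (squares) and control 3 (triangles); the solid line marks 1 FPKM and the dotted line 0.1 FPKM. In the HoxA panel the points drop from Hoxa7 to Hoxa9, and in the HoxD panel from Hoxd9 to Hoxd10.

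Other developmental factors were led by the chromatin proteins of embryonic and dividing cells. Hmga1 was at 208, 212 and 211 FPKM and Hmga2, which most adult tissues lack, at 123, 126 and 120.5 FPKM. Osr1 (43.9, 50 and 45.6 FPKM) and Sox4 (42.2, 45.4 and 42.7 FPKM) overlapped. Sox9, the cartilage factor, was at 32.3, 33.4 and 33.2 FPKM although Col2a1 and Acan were off. Among the factors of mesenchymal transition, Snai2 (15.9 ± 1.21 FPKM), Snai1 (10.2 ± 0.612), Zeb1 (8 ± 0.291) and Zeb2 (5.54 ± 0.376) were on. Of limb factors, Tbx4 was just on at 1.29, 1.26 and 1.31 FPKM and Tbx5 and Pitx1 had no count, and Tbx15 and Tbx18 were at 11.4 ± 0.433 and 6.65 ± 0.543 FPKM. En1, a factor of dermal fibroblast lineages, was at 6.41, 6.48 and 5.83 FPKM. Hand1, Hand2, Foxd1, Dlx5 and Msx2 had no count.

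DNA repair genes were on almost throughout. Of 62 genes, 59 were on (95.2%), with all 14 of nucleotide excision repair, all 7 of translesion synthesis and all 18 of double-strand break repair. Levels differed by far more than the spread. Ddb1, an adaptor of ubiquitin ligases that also helps find UV lesions, was at 244, 236 and 248 FPKM, while its partner Ddb2 was at 2.73, 2.58 and 2.93 FPKM. Rad23b was at 104 ± 2.14 and Xpc, which it stabilises, at 3.88 ± 0.14 FPKM. Ogg1, the glycosylase for oxidised guanine, was at 7.56, 7.38 and 8.5 FPKM, Parp1 at 41.5 ± 0.71 and Apex1 at 23.8 ± 2.45. Neil2 was the only gene well under 1, at 0.17, 0.12 and 0.16 FPKM, with Mutyh at 0.92, 1.1 and 1.14 and Mlh3 at 1.03, 1.07 and 0.8. Polh, which copies past UV dimers, was at 5.29, 4.55 and 4.03 FPKM, and Prkdc, the kinase of end joining, at 3.17, 3.05 and 2.92 FPKM.

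Of 76 genes of redox control and photoprotection, 47 were on (61.8%). Some genes of thiol systems were high, with Txn1, thioredoxin, at 375, 380.2 and 377 FPKM, Prdx1 at 271, 269 and 269.5 and Gsto1 at 205, 204 and 199 FPKM. All 12 genes listed with the peroxiredoxins and thioredoxins were on. They include the thioredoxin reductases, down to Txnrd2 at 3.75 ± 0.21 FPKM, and the thioredoxin-interacting protein Txnip at 5.85 ± 0.329 FPKM. Among glutathione peroxidases, Gpx4, which protects membrane lipids, was at 123, 133 and 125 FPKM, and Gpx1 at 10.3, 9.75 and 10.4. Sod1 was at 43.2 ± 0.9 and Cat, catalase, at 15.6 ± 0.568 FPKM. Nfe2l2, which encodes NRF2, was at 36.3 ± 0.806 and its inhibitor Keap1 at 10.9 ± 0.741 FPKM, with the targets Nqo1 at 27.4 ± 1.77 and Hmox1 at 14.1 ± 1.14. The NADPH oxidase enzymes were not on: Duox1 was the highest at 0.49, 0.39 and 0.44 FPKM, and Nox4, the form usual in fibroblasts, had 1 count, Cybb 6 and Nox1 was at 0.23, 0.1 and 0.07 FPKM. Their shared subunit Cyba was on at 24 ± 0.8 FPKM. Ahr, the receptor of dioxins and light-formed tryptophan products, was at 2.71, 2.34 and 2.35 FPKM, and of its targets Cyp1a1 had 0 counts and Cyp1b1 was at 0.32, 0.3 and 0.45 FPKM.

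In the cell death list 19 of 27 genes were on (70.4%). The effectors Bax (40.6 ± 1.86 FPKM) and Bak1 (25.7 ± 0.648 FPKM) and the guards Mcl1 (37.5 ± 0.29 FPKM) and Bcl2l1 (23.8 ± 1.6 FPKM) were high, and Bcl2 itself was at 2.37, 2.1 and 2.24 FPKM. Casp1, the caspase that processes interleukin-1 beta, had 4 counts. Of the death sensors induced by p53, Bbc3 was on at 2.37, 2.5 and 2.37 FPKM and Pmaip1 was at 2, 3 and 6 counts. Among chromatin enzymes, Dnmt1, the maintenance methyltransferase, was at 43.3, 45 and 43.7 FPKM, 10.7 ± 0.44 times Dnmt3a, its guide Uhrf1 was at 31 ± 0.868 FPKM, and Suz12, Bmi1 and Ezh2 of the polycomb complexes were at 49.4 ± 0.465, 28.5 ± 0.455 and 19.1 ± 0.705 FPKM.

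Isoenzymes of glycolysis differed in level. Pgk1 and Pkm overlapped at 559.6, 597 and 589 and 574, 544 and 578 FPKM. Ldha was at 332, 339 and 341 FPKM, 10.7 ± 0.51 times Ldhb, Aldoa was at 305 ± 9.02, Eno1 at 205 ± 4.72, and Pklr, the form of liver and red cells, was off. Slc2a1 was the main glucose transporter at 34, 32.2 and 36.5 FPKM, with Slc2a3, Slc2a4 and Slc2a2 at 11, 14 and 0 counts. Hk1 and Hk2 were at 21.9 ± 0.452 and 15.3 ± 0.295 FPKM. No creatine kinase was on, and Ckb had 10 counts.

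Imprinted growth genes differed between each other. Grb10 was at 69.2, 70.5 and 70.1 FPKM, Impact at 33.1 ± 0.83 and Gnas at 30.7 ± 0.587 FPKM, Igf2r at 17.5, 17.8 and 18.4 and Dlk1 at 4.39, 5.14 and 4.63 FPKM, whereas H19 had 1 count, Meg3 1, Rtl1 0 and Peg10 5. Among proliferins, prolactin-like genes first found in growing 3T3 cells, Prl2c2 was at 779, 708 and 734 FPKM (ENSMUSG00000079092, chromosome 13, 13170710 to 13179968, minus strand of mm39). Prl2c3 was at 7.95, 11 and 11 and Prl2c5 at 0.35, 1.06 and 0.37 FPKM, but these genes are near-identical, so that how much each of them contributes is uncertain. Genes that mark sex chromosomes were off: Xist had 1, 0 and 1 counts, and Ddx3y, Eif2s3y and Uty had 2, 1 and 1, with none for Kdm5d and Sry. Of 1569 genes placed on the Y chromosome, 1 was on, Gm47283 at 2.32, 2.28 and 2.39 FPKM (90796007 to 90827734). It held 585 of the 601 counts of that chromosome. Whether its reads come from Y or from a matching sequence elsewhere was not tested.

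The genes ranked as most variable between the libraries had low counts, where counting error is largest. The ranking made no allowance for that error, so it favours genes near its lower count limit. Among genes with a mean count of at least 100, the 10 with the largest coefficient of variation ran from 35.7% for Ranbp3l to 25% for Gpank1. Ranbp3l was at 0.94, 0.46 and 0.94 FPKM, low in control 2. Arrdc2 (1.79, 2.97 and 2 FPKM), Relb, an NF-kappaB subunit (1.38, 2.4 and 1.86 FPKM), and Defb41, a beta-defensin (6.9, 12 and 9.04 FPKM), were high in control 2. Slx1b (2.8, 1.89 and 1.66 FPKM) was highest in control 1. Agap2 was lowest in control 1 at 0.62, 1.03 and 1.08 FPKM. The others of the 10 were Rccd1, Nsun6 and Rab4b.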

How the data were processed

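Total RNA was turned into libraries with a VAHTS Universal V8 kit, per the labels' protocols. HISAT2 2.2.1, HTSeq 0.6.1, cutadapt 1.9.1 and the build mm39 are listed, without roles, in the submitters' processing notes. The authors deposited a raw count and an FPKM value per gene and library, with coordinates and exonic sizes. The deposited FPKM equals the count divided by exonic size and library total (170073 of 170073 control values within 0.01). The NC columns were taken as the controls by elimination, since the remaining prefixes match the remaining titles. Classes on and off were set on the deposited FPKM with thresholds of 1 and 0.1 in every library. A count of 0 was given the limit of 3 counts, and limits cover counting error only. TPM, where used as an alternative, is FPKM times 3.39. The common coefficient of variation came from edgeR 4.0.16 in R 4.3.3 (intercept only, filterByExpr, TMM factors of 0.99775 to 1.0021), checked on simulated counts. Biotypes came from GENCODE M21 by gene ID (52073 of 56691 matched), and promoters from RefSeq (GRCm38.p6). Where a symbol had several rows, that of the longest exonic size was used. Named genes are members of the gene lists, among them the 3 highest of each list described (fewer where fewer were on), the 20 highest genes by FPKM, the 10 highest by count, and the 10 most variable with a mean count of at least 100; pigment glycoprotein, copy and pseudogene examples the 58 ligand and receptor pairs, and the members named of families outside the lists were added after their values were seen. Some members of these lists are not reported here. The members and lists were chosen with earlier results of these data known. Alternatives changed the thresholds, the unit, the library size and the libraries used.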

Additional observations from a re-analysis of the deposited data

How the results depend on the processing

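Genes on numbered 9801 to 13253 over the alternatives, and 11292 to 11323 when 1 library was left out; genes off numbered 33130 to 39152. Thresholds of 0.5 and 0.05 gave 1 endothelial, 2 pluripotency and 5 cadherin genes on, and thresholds of 2 and 0.2 gave 1 cadherin, 0 melanocyte and 0 opsin genes on. In TPM, which sets a threshold 3.39 times more permissive, 2 endothelial, 2 pluripotency, 6 cadherin and 1 epithelial gene were on, and in CPM, which ignores length, 2 endothelial, 2 pluripotency, 6 cadherin, 1 epithelial, 2 adipocyte, 1 neural and 4 Notch genes. The counts of the other lists stayed within 1.5 times those reported in each alternative. All 778 levels compared stayed within 1 SD with TMM-scaled library sizes. Without mitochondrial genes the first 10 genes held 4.8% of counts. The coefficient of variation ran from 2.82% without replicate 2 to 3.64% without replicate 3. No paired analysis was possible because the libraries are 1 group and no test was run, where paired means matching libraries between groups. Genes could still be set against each other within a library, and the ratios between genes were taken in that way. Depth limits short genes most, as the fewest counts on which a gene was on were 6 over the 3 libraries.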

Other observations

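Large gene families outside the lists above differed in how much of each was transcribed. Of 1399 olfactory receptor genes and pseudogenes, 0 were on and 1319 had no count, and of 355 vomeronasal receptors 0 were on. All 58 keratin-associated protein genes and all 14 interferon alpha genes had no count. Of 54 keratins, 2 were on, Krt80 at 3.66 FPKM and Krt10 at 1.6. Of 34 claudins, only Cldn12 (33.3 ± 0.557 FPKM), which differs from other claudins in lacking their usual scaffold-binding end, and Cldn9 (1.28 ± 0.221 FPKM) were on. Of 42 beta-defensins, Defb41 alone was on, and it was also among the 10 most variable genes. At the other extreme, 273 of 406 Zfp zinc finger genes (67.2%), 35 of 39 proteasome subunits (89.7%) and 24 of 39 kinesins (61.5%) were on.

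The clustered protocadherins, surface proteins of neurons, were uneven between clusters. None of 14 alpha genes was on, 7 of 22 beta genes were, and in the gamma cluster Pcdhgc3 stood alone at 27.1 ± 0.718 FPKM. Gamma transcripts share their 3′ exons, so counts among them cannot be assigned with certainty. Of 95 cytochrome P450 genes, 8 were on, led by Cyp20a1 at 17.3 ± 1.62 FPKM and Cyp2c55, known from intestine and liver, at 10.7 ± 1.06 FPKM. Solute carriers were on in 149 of 370 cases (40.3%), near the 44.9% of coding genes, with the mitochondrial ADP and ATP carriers Slc25a4 (195 ± 0.438 FPKM) and Slc25a5 (165 ± 3.6 FPKM) among the highest. None of 10 voltage-gated sodium channel alpha subunits was on, while 7 of 93 potassium channel genes were, led by Kcnk2 at 4.78 ± 0.252 FPKM. By chromosome, the share of protein-coding genes on was lowest on Y, with 1 of 175.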
